A study of Mus musculus with 10 samples.

Results

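The 10 genes of major histocompatibility complex (MHC) class II antigen presentation were followed across haematopoietic progenitors of mice with and without Dnmt3a, a de novo DNA methyltransferase. They were chosen by name, and all 10 were present among the 38086 gene IDs shared by both deposited count tables and passed the filter on low counts in each. The samples were 10 RNA-seq libraries from C57BL/6 bone marrow at 12 months of age, all from mice that carried floxed Dnmt3a alleles (Dnmt3af/f) and, per the labels, had 5 intraperitoneal injections of poly(I:C), an inducer of interferon. KO mice also carried Mx1-Cre, an interferon-inducible Cre transgene that is active in blood-forming cells but not confined to them, and CTRL mice lacked Cre, so loss of Dnmt3a and presence of Cre cannot be told apart. Sorted granulocyte-macrophage progenitors (GMP: lineage-negative, Sca1-, cKit+, CD34+, FcgR+) and LSK cells (lineage-negative, Sca1+, cKit+, the gate that holds stem cells and multipotent progenitors) each gave 3 KO and 2 CTRL libraries. Each library is called by its genotype with the number that its title carries. Levels are CPM, read counts scaled to a common library size with TMM factors within a population.

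Class II molecules are pairs of an alpha and a beta chain that show peptides from the endosome to CD4+ T cells. The invariant chain blocks their groove until they reach the endosome, where H2-DM exchanges its remnant for peptide and H2-O restrains H2-DM. Ciita, a coactivator that does not bind DNA itself, joins RFX, CREB and NF-Y proteins on the X and Y boxes of the promoters, and it is active mainly in dendritic cells, B cells and macrophages and under interferon gamma.

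Of the 10 genes, 8 lie on chromosome 17 between positions 34092340 and 34316674 (GRCm38, GENCODE vM21). Ciita is on chromosome 16 (10480059 to 10528418). All 10 are annotated as protein-coding. H2-Eb1, H2-Oa, H2-DMa and Ciita overlap a gene on the opposite strand (Gm20513, BC051537, Brd2 and Dexi), and since the sources used here do not give the strand setting of the counting, reads of such pairs may not be separated. RefSeq promoters (GRCm38.p6, 250 bases before to 50 after the start) were matched for 7 of the genes. In 5 of these, a match to CNNGNAAC, an X-box core, was followed by TGATTGG, the NF-Y core of the Y box, with starts 20 to 45 bases apart. The stretches below are shown because they carry the shared promoter element of the family, with 10 bases on either side and both matches in capitals, read in the direction of the gene.
H2-Aa, chr17:34287857-34287917, minus strand: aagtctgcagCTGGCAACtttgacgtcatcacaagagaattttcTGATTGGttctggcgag
H2-Eb1, chr17:34305763-34305822, plus strand: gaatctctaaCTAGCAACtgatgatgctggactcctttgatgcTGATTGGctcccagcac
H2-DMb1, chr17:34153084-34153144, plus strand: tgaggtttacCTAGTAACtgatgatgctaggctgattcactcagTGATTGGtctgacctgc
H2-Oa, chr17:34092290-34092350, plus strand: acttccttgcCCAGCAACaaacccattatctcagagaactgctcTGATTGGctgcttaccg
H2-Ob, chr17:34238805-34238862, plus strand: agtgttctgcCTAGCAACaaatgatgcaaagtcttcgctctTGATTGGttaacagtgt

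The matches started 34 bases apart in H2-Aa, H2-DMb1 and H2-Oa, 33 in H2-Eb1 and 31 in H2-Ob. The pair, searched on both strands, was in 68 of 32851 promoters of the same length (0.207%), CNNGNAAC alone in 39.1% and TGATTGG alone in 7.82%; the letters and the spacing were set with these promoters in view. The pair was not in the windows of H2-DMa and H2-DMb2. A match describes the letters of the promoter and is not a tested binding site.

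Dnmt3a itself was counted at 127 and 99.0 CPM in GMP CTRL-346 and CTRL-350 against 44.7 (KO-178), 57.4 (KO-179) and 17.7 CPM (KO-352), and at 169 and 168 in the LSK CTRL libraries against 57.8 to 65.4 in KO. It was lower in each KO library than in any CTRL library of its population. GMP libraries held 93850256 to 122658636 gene counts and LSK libraries 29533371 to 30437981. The summed gate markers matched the labels. For 10 GMP genes such as Mpo, Elane and Ctsg the sum was 14650 to 23850 CPM in GMP and 3215 to 3830 in LSK. For 10 LSK genes such as Hlf, Mecom and Procr it was 357 to 407 in GMP and 1369 to 1723 in LSK. Most of the latter was Kit (752 to 984 CPM in LSK). In each list 1 gene went the other way. Cd34, a GMP gene, had means of 943 (CTRL) and 857 CPM (KO) in LSK, against 404 and 348 in GMP. Cd48, an LSK gene, was at 96.6 and 99.0 CPM in LSK, against 151 and 139 in GMP. KO-352, titled as GMP but with a description that names LSK data, was at 19754 CPM for the GMP genes and 361 for the LSK genes, both within the range of GMP. Reads outside annotated genes differed among GMP libraries, from 8.50% in CTRL-346 and 10.3% in KO-352 to 14.2% in CTRL-350, 15.5% in KO-178 and 16.1% in KO-179. Counts of Xist and of Y-linked genes marked the 5 GMP libraries as male, LSK CTRL-1326 and KO-1327 as male, and the other 3 LSK libraries as female.

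The classical chains H2-Aa, H2-Ab1 and H2-Eb1, the invariant chain gene Cd74 and Ciita varied among GMP libraries within both genotypes. Of these libraries 1 CTRL and 1 KO library were high, and the other 3 low. H2-Aa, the alpha chain of H2-A, was at 2.55 CPM in CTRL-346 and 66.3 in CTRL-350, and at 6.72 (KO-178), 47.9 (KO-179) and 1.54 CPM (KO-352). H2-Eb1, the beta chain of H2-E, was at 0.939 and 35.1 CPM in the CTRL libraries and at 3.40, 24.6 and 0.688 in the KO libraries in the same order. Both chains therefore had a high and a low library in each genotype, and the groups overlapped. Within GMP the highest library exceeded the lowest 43.1-fold for H2-Aa and 51.0-fold for H2-Eb1. The lowest library held 152 reads of H2-Aa and 68 of H2-Eb1.

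H2-Ab1, the beta chain that pairs with H2-Aa, followed the same order over a smaller range. It was at 15.2 and 54.2 CPM in CTRL-346 and CTRL-350 and at 16.6 (KO-178), 39.2 (KO-179) and 13.4 CPM (KO-352), a 4.03-fold range. The 3 low libraries thus kept a level of H2-Ab1 that H2-Aa did not have there. Per kilobase of exon, the ratio of the level of H2-Ab1 to that of H2-Aa was 1.21 in both high libraries but 8.85 in CTRL-346, 3.64 in KO-178 and 12.9 in KO-352. In LSK the same ratio stayed between 1.52 and 1.76 in all 5 libraries. No other annotated gene overlaps H2-Ab1 or H2-Aa.

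Cd74, on chromosome 18 (60803848 to 60812652, GRCm38), encodes the invariant chain. It was at 2.64 CPM in CTRL-346 and 80.6 in CTRL-350, and at 8.14 (KO-178), 41.4 (KO-179) and 1.20 CPM (KO-352). It had the widest GMP range of the 10 genes, 67.0-fold. Ciita, the transactivator, was at 0.432 and 7.09 CPM in CTRL and at 0.870, 3.16 and 0.172 CPM in KO, a 41.3-fold range from 17 to 679 reads. The order of the 5 GMP libraries was the same for Cd74, Ciita, H2-Aa, H2-Eb1 and H2-Ab1: CTRL-350, KO-179, KO-178, CTRL-346, KO-352. In bulk samples a change in the number of cells of a type and a change in RNA per cell cannot be told apart.

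**Figure D1:**
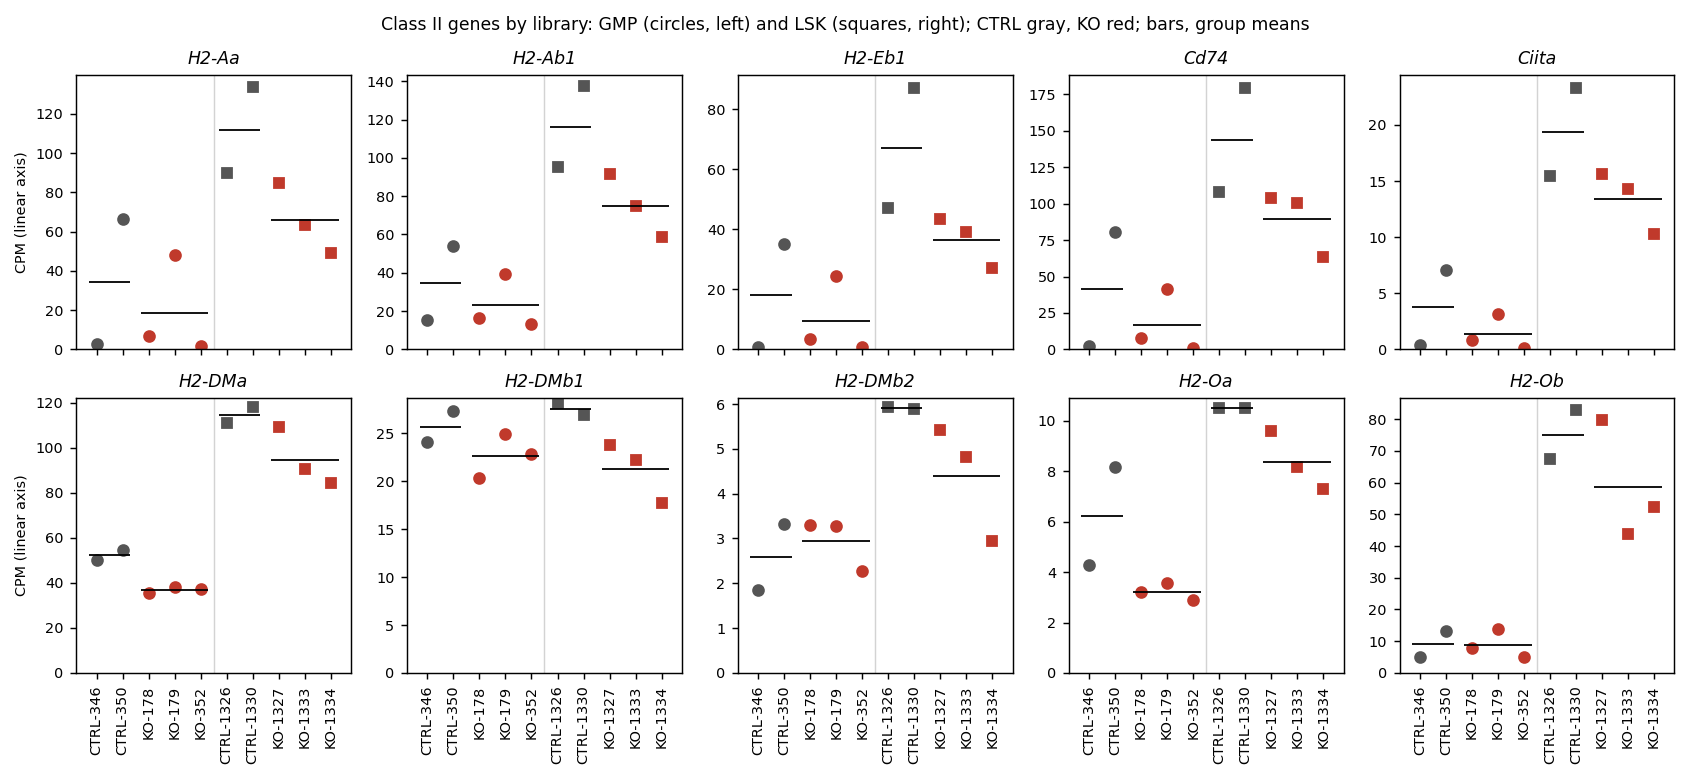
CPM of the 10 class II genes (y axis, linear, from 0) in each of 10 libraries (x axis); circles are GMP, squares LSK, gray CTRL, red KO, and bars the group means. H2-Aa, H2-Ab1, H2-Eb1, Cd74 and Ciita were high in GMP CTRL-350 and KO-179 (H2-Aa 66.3 and 47.9 CPM) and lower in the other 3 GMP libraries (H2-Aa at most 6.72), while H2-DMa and H2-DMb1 stayed within a narrow range.

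The H2-DM genes, whose product edits the peptide in the groove, varied less between GMP libraries. H2-DMa was at 50.3 and 54.6 CPM in GMP CTRL-346 and CTRL-350 and at 35.3 (KO-178), 38.2 (KO-179) and 37.2 CPM (KO-352). Each KO library was below both CTRL libraries, and its whole GMP range was 1.55-fold. H2-DMb1 was at 24.1 and 27.4 CPM in CTRL and 20.3, 24.9 and 22.9 CPM in KO, with the groups overlapping. CTRL-350 and KO-179 were its highest GMP libraries too, over a 1.35-fold range. H2-DMb2 was at 1.84 and 3.32 CPM in CTRL and 3.29, 3.29 and 2.29 CPM in KO, also overlapping. Because H2-DMb1 and H2-DMb2 are near-identical copies and the sources used here do not give the authors' treatment of shared reads, the split between them is uncertain.

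The H2-O genes, which encode the modulator of H2-DM, behaved differently from each other. H2-Oa was at 4.28 and 8.17 CPM in GMP CTRL and at 3.21, 3.56 and 2.90 CPM in KO, with every KO library below both CTRL libraries. H2-Ob was at 5.11 and 13.1 CPM in CTRL and 7.84, 13.98 and 4.95 CPM in KO. H2-Ob was thus highest in the same 2 libraries as the classical chains, over a 2.82-fold range, and its groups overlapped.

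Against this spread the knockout had no called effect on the class II genes in GMP. With edgeR's quasi-likelihood test, Benjamini-Hochberg adjusted over 17290 genes, 0 of 10 passed at 0.05, where 0.0347% of all genes did. The log2 fold change of H2-Aa was -0.88 ± 1.48 (SE; edgeR adjusted p = 0.82), Cd74 -1.30 ± 1.48 (0.71) and Ciita -1.42 ± 1.27 (0.63). The SE of these genes exceeded or nearly equalled the estimate. H2-DMa had -0.51 ± 0.10 (edgeR adjusted p = 0.26) and H2-Oa -0.95 ± 0.31 (0.32). These were the 2 members with an unadjusted p under 0.05, against 13.8% of all genes, and the 2 with all KO libraries below all CTRL libraries, against 15.1% of all genes; 0 members were higher in every KO library, against 16.5%. The median of the 10 log2 fold changes was -0.73, against 0.01 over all genes, with 9 negative.

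That median rested on CTRL-350. Without it the median was 0.73, and H2-Aa was at 2.86 ± 1.87, H2-Eb1 at 3.33 ± 1.99 and Cd74 at 2.66 ± 1.80, whereas H2-DMa stayed at -0.46 ± 0.14 and H2-Oa at -0.42 ± 0.29. DESeq2 called 1 member, H2-DMa (-0.52, DESeq2 adjusted p = 6.74e-04), where it called 4.07% of all genes, and limma-voom called 0. With a term for the share of reads outside genes, edgeR called Cd74 (-2.99 ± 0.51, adjusted p = 0.047), Ciita (-2.87 ± 0.47, 0.042) and H2-DMa (-0.53 ± 0.09, 0.048), where 1.19% of all genes passed. Over all alternatives the adjusted p of H2-DMa ran from 6.74e-04 to 0.81, that of Cd74 from 0.047 to 0.93 and that of Ciita from 0.042 to 0.95.

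In LSK all 10 class II genes had lower fitted levels in KO than in CTRL, by modest amounts, and none was called. H2-Aa was at 89.7 CPM in CTRL-1326 and 133 in CTRL-1330, and at 84.9 (KO-1327), 63.6 (KO-1333) and 49.3 CPM (KO-1334). H2-Ab1 was at 95.3 and 137 CPM in CTRL and at 91.6, 74.8 and 58.6 CPM in KO. H2-Eb1 was at 47.1 and 87.3 CPM in CTRL and 43.6, 39.1 and 27.1 CPM in KO. For all 3 chains every KO library was below both CTRL libraries, but KO-1327 lay close under CTRL-1326.

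Cd74 was at 108 and 179.5 CPM in LSK CTRL-1326 and CTRL-1330 and at 104 (KO-1327), 100 (KO-1333) and 63.2 CPM (KO-1334). Ciita was at 15.5 and 23.3 CPM in CTRL and at 15.6, 14.3 and 10.3 CPM in KO. The groups did not overlap for Cd74, and for Ciita they did, through KO-1327. H2-DMa was at 111 and 118 CPM in CTRL and 109, 90.4 and 84.3 CPM in KO, without overlap. H2-DMb1, at 28.2 and 26.9 CPM in CTRL and 23.8, 22.2 and 17.8 CPM in KO, likewise did not overlap.

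The remaining LSK values were those of the low-level H2-DMb2 and of the H2-O genes. H2-DMb2 was at 5.93 and 5.90 CPM in CTRL and 5.43, 4.82 and 2.94 CPM in KO. H2-Oa was at 10.5 CPM in both CTRL libraries and at 9.61, 8.17 and 7.31 CPM in KO. Neither overlapped between genotypes. H2-Ob, at 67.5 and 82.8 CPM in CTRL and 79.8, 43.9 and 52.4 CPM in KO, overlapped.

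By edgeR's quasi-likelihood test over 17238 genes, 0 of 10 were called in LSK, where 0.0232% of all genes were. H2-Eb1 had a log2 fold change of -0.88 ± 0.25, H2-Aa -0.76 ± 0.21, Cd74 -0.69 ± 0.23 and H2-Ab1 -0.63 ± 0.19 (edgeR adjusted p = 0.9998 for each). The smallest changes were H2-DMa at -0.27 ± 0.11, H2-Oa at -0.33 ± 0.16 and H2-Ob at -0.36 ± 0.21, and Ciita was at -0.54 ± 0.21. The median over the 10 was -0.48, against 0.0027 over all genes. An unadjusted p under 0.05 was reached by 7 of the 10, against 2.83% of all genes, and 8 of 10 were lower in every KO library, against 7.26% of all genes; 0 were higher in every KO library, against 7.56%. The 10 genes are not independent observations: 8 lie in 1 stretch of chromosome 17, and KO-1334 was the lowest LSK library for 9. Their counts were not tested against the shares of all genes. DESeq2, which called 0.11% of all genes, and limma-voom also called 0 of 10. With 3 residual degrees of freedom, the p-values cover only the spread among these libraries, which may be technical, and apart from the numbers in the titles no label says that each is a separate animal.

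Within LSK the difference was larger among the female libraries than in the male pair. In the male pair, KO-1327 had 0.946 times the CTRL-1326 level of H2-Aa, 0.962 times that of H2-Ab1, 0.961 times that of Cd74 and 1.01 times that of Ciita. In the female libraries the mean of KO-1333 and KO-1334 was 0.423 times the CTRL-1330 level of H2-Aa, 0.486 times that of H2-Ab1, 0.455 times that of Cd74 and 0.526 times that of Ciita. Over the 10 genes the ratio ran from 0.844 to 1.18 in the male pair, with 8 lower in KO, and from 0.379 to 0.742 in the females, with 10 lower. With 1 CTRL library of each sex the sexes were not tested against each other. CTRL-1330 was the highest LSK library for 7 of the 10 genes and KO-1334 the lowest for 9. Without CTRL-1330 the LSK median was -0.34, with H2-Eb1 at -0.37 ± 0.22, and with sex as a term it was -0.47.

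**Figure D2:**
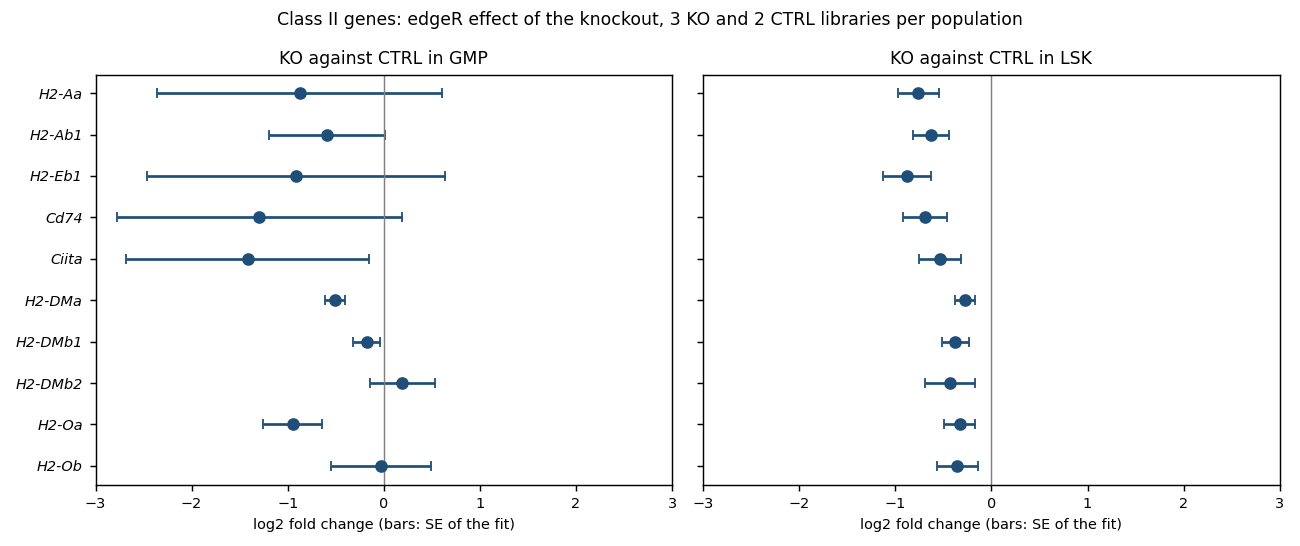
Fitted log2 fold change of KO against CTRL (x axis) for the 10 class II genes (y axis) in GMP and in LSK; bars are the SE of the edgeR fit. In GMP the bars of the classical chains, Cd74 and Ciita are wide (H2-Aa -0.88 ± 1.48), while in LSK all 10 points lie below 0 with narrower bars (H2-Aa -0.76 ± 0.21).

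The knockout effects of the populations were compared in a fit of all 10 libraries. Of the 10 genes 0 differed (edgeR), where 0.0265% of all genes did, and 0 had an unadjusted p under 0.05, against 10.1% of all genes; DESeq2 and limma-voom called 0. The difference, LSK minus GMP, was 0.12 ± 1.74 for H2-Aa and 0.61 ± 1.75 for Cd74, and without GMP CTRL-350 it was -3.64 ± 1.79 and -3.37 ± 1.73. It was better bounded for H2-DMa at 0.21 ± 0.16 and H2-DMb1 at -0.21 ± 0.20. For the classical chains the SE is so large that sizeable differences in either direction could not have been seen.

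Between populations, 2 of 10 class II genes were called higher in LSK among CTRL libraries, where 28.2% of all genes were. Called lower were 0, where 27.3% of all genes were. These counts were not tested against the shares of all genes. H2-Ob was higher by a log2 fold change of 2.66 ± 0.52 (edgeR adjusted p = 0.0015), from 9.11 ± 5.65 CPM (SD, n = 2) in GMP to 75.1 ± 10.8 (n = 2) in LSK. H2-DMa was higher by 0.75 ± 0.13 (edgeR adjusted p = 5.93e-04), from 52.4 ± 3.02 to 114 ± 4.87 CPM. H2-Aa at 1.30 ± 1.37 and Cd74 at 1.39 ± 1.37 were not called. The median of the 10 was 1.32, against 0.12 over all genes. CPM were scaled within each population and fold changes come from the joint scaling, so that the log2 ratio of the mean CPM among CTRL libraries, LSK over GMP, was 3.04 for H2-Ob, 1.13 for H2-DMa and 0.10 for H2-DMb1, the last of which the fit placed lower in LSK.

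Among KO libraries 5 genes were called higher in LSK, where 30.7% of all genes were, and 1 lower, where 30.1% were. The higher ones were Ciita (2.85 ± 0.98), H2-Ob (2.32 ± 0.42), H2-Ab1 (1.30 ± 0.48), H2-Oa (0.98 ± 0.24) and H2-DMa (0.96 ± 0.10). H2-DMb1 was lower, by -0.49 ± 0.13, and in CTRL it was at -0.28 ± 0.16; with library totals in place of TMM these became -0.11 and 0.13. That scaling moved the median of all genes to 0.53 in CTRL and 0.46 in KO. The 2 comparisons use different libraries. Population coincides with count table, annotation and depth, and these cannot be told apart. Sex is also unequal: by their counts all GMP libraries were male, and LSK CTRL-1330, KO-1333 and KO-1334 were female. The joint fit, which also gave the difference in knockout effects, had no term for sex.

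GMP CTRL-350 and KO-179 set the size of this difference. An alternative chosen after the data were seen left out both, which were the 2 highest GMP libraries for 7 of the 10 genes. A rise of LSK over GMP in those genes follows from that choice and is no test. Among CTRL the median rose to 3.01. H2-Eb1 was then at 5.77 ± 0.91, Cd74 at 5.37 ± 1.01, Ciita at 5.09 ± 0.81 and H2-Aa at 5.06 ± 0.82, whereas H2-DMa was at 0.79 ± 0.17 and H2-DMb1 at -0.20 ± 0.19. Among KO libraries, where 32.1% of all genes were called higher without both, H2-Aa was at 3.61 ± 0.54, Cd74 at 3.87 ± 0.66 and H2-DMa at 0.99 ± 0.12. GMP CTRL is then a single library, assumed to vary like the other groups.

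**Figure D3:**
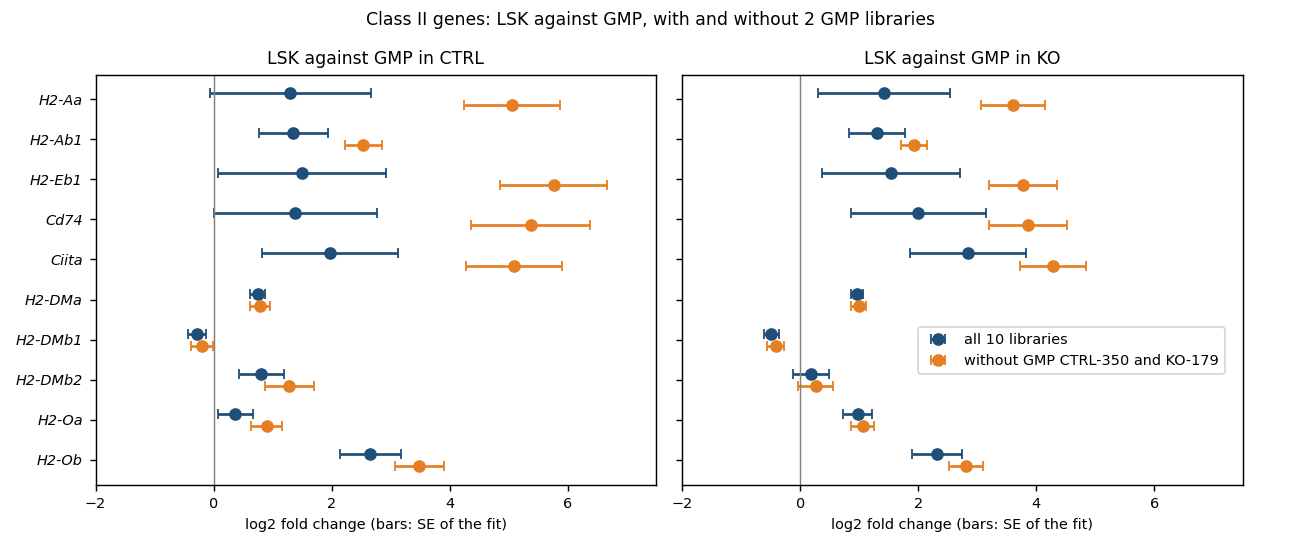
Fitted log2 fold change of LSK against GMP (x axis) for the 10 class II genes (y axis) among CTRL and among KO libraries; blue is the fit of all 10 libraries, orange the fit without GMP CTRL-350 and KO-179, and bars are SE. Leaving them out moves H2-Aa among CTRL from 1.30 to 5.06 and H2-DMa only from 0.75 to 0.79. They are the highest GMP libraries for H2-Aa, so its rise follows from the choice.

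Per kilobase of exon, Cd74 led the levels in LSK, at 85.6 ± 30.0 CPM per kb (SD, n = 2) in CTRL and 53.1 ± 13.4 (n = 3) in KO. H2-Ab1 followed at 45.3 ± 11.6 in CTRL, and H2-Eb1 (34.6 ± 14.6), H2-DMa (33.2 ± 1.41) and H2-Aa (29.4 ± 8.13) overlapped in range with the neighbour in the order. Below them, each apart from the next, came H2-DMb1 (16.4 ± 0.53), H2-Ob (13.96 ± 2.003), H2-Oa (7.47 ± 0.02), H2-DMb2 (3.39 ± 0.01) and Ciita (2.04 ± 0.58). In GMP KO libraries H2-DMb1 (13.5 ± 1.37) and H2-DMa (10.7 ± 0.42) stood first, above Cd74 (10.1 ± 12.8), whose range of 0.717 to 24.7 CPM per kb spanned most of the others. H2-DMa exceeded H2-DMb1 per kilobase 1.92-fold to 2.32-fold in LSK, while in GMP the ratio was 0.747 to 1.02. The H2-Oa to H2-Ob ratio was 0.460 to 0.711 in LSK and 0.974 to 3.20 in GMP.

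The other genes of the pathway gave 0 calls between KO and CTRL in either population. Of all genes 0.0347% were called in GMP and 0.0232% in LSK. At such shares 0 calls say little about a list, and this holds for each list below. Of 7 genes for promoter factors (RFX subunits, NF-Y subunits and Creb1), 0 were called, and their medians were -0.20 in GMP and 0.05 in LSK. Rfx5, an RFX subunit, was at 28.9 and 31.1 CPM in GMP CTRL-346 and CTRL-350 and at 25.8 (KO-178), 24.9 (KO-179) and 30.0 CPM (KO-352). It did not share the pattern of the class II chains. Of 7 tested genes on the interferon gamma route to Ciita 0 were called, with medians of -0.19 and -0.06. Among them Ifngr1, the ligand-binding receptor chain, was at 453 to 460 CPM in GMP CTRL and 588 to 647 in KO (0.44 ± 0.10, edgeR adjusted p = 0.26), and Irf1 at 81.6 to 87.5 and 55.4 to 75.3 CPM. Ifng was read in 1 of 5 GMP libraries and at no more than 0.167 CPM in LSK.

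Of 12 genes of endosomal processing and class II turnover, 0 were called in either population, with medians of -0.07 in GMP and -0.16 in LSK. Ctsd and Ctsb, lysosomal proteases, were at 325 to 486 and 316 to 347 CPM in GMP, and Cst3, a cysteine protease inhibitor, at 149 to 236. Marchf1, the ubiquitin ligase that sends surface class II to degradation and a gene chosen after its values were seen, was at 0.798 and 8.22 CPM in GMP CTRL-346 and CTRL-350 and at 6.81 (KO-178), 11.4 (KO-179) and 1.07 CPM (KO-352). KO-179 and CTRL-350 were its highest GMP libraries. It was low in the 2 libraries lowest for H2-Aa but, unlike H2-Aa, not low in KO-178. In LSK its log2 fold change was -0.94 ± 0.30 (edgeR adjusted p = 0.9998). Ctsh and Cd83, also chosen after their values were seen, were highest in the same 2 GMP libraries. In CTRL-350 and KO-179 Ctsh was at 66.9 and 52.65 CPM, against 34.5 to 48.2 in the others. Cd83 was at 0.564 and 0.204 CPM (54 and 26 reads), against at most 0.0191 in the others. The other genes of the list did not have these 2 libraries highest.

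The 14 class I presentation genes did not share the GMP pattern. B2m, the class I light chain, was at 863 to 982 CPM and H2-K1, a class I heavy chain, at 508 to 782 CPM over the 5 GMP libraries. Calr and Canx, chaperones of class I assembly, were at 2417 to 4969 and 1674 to 2309 CPM. Of the 14, 0 were called between KO and CTRL, with medians of -0.33 in GMP and -0.13 in LSK. Between populations, H2-K1 was higher in LSK in CTRL by 0.63 ± 0.14 (edgeR adjusted p = 0.0028) and Calr lower by -2.27 ± 0.18 (4.61e-06). Of the 14 genes 5 were called higher there, where 28.2% of all genes were, and 5 lower, where 27.3% were. Of 6 costimulatory ligand genes 0 of 6 in GMP and 0 of 5 tested in LSK were called between KO and CTRL. H2-Eb2, a further class II beta chain gene, was at 0.010 to 0.136 CPM in GMP and 0.533 to 1.74 in LSK, and H2-Ea-ps, the alpha chain locus that is inactive in C57BL/6 mice, had reads in GMP KO-179 alone (0.0079 CPM).

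Markers of antigen-presenting cells were then set beside the GMP pattern. Of 10 conventional dendritic cell genes, Xcr1, Clec9a, Itgax, Zbtb46 and, on few reads, Batf3 were highest in CTRL-350 and KO-179, as the class II chains were. Xcr1, a chemokine receptor, was at 0.529 and 4.58 CPM in GMP CTRL-346 and CTRL-350 and at 0.976 (KO-178), 4.22 (KO-179) and 0.404 CPM (KO-352). Clec9a, a receptor for dead cells, was at 0.561 and 4.22 CPM in CTRL and at 0.564, 2.59 and 0.222 CPM in KO. Both were lowest in KO-352. Itgax, the CD11c integrin chain, was at 1.07 and 3.93 CPM in CTRL and at 2.07, 3.63 and 1.11 CPM in KO, and Zbtb46, a transcription factor of dendritic cells, at 0.593 and 3.09 and at 1.69, 2.23 and 0.981 CPM. In LSK, Xcr1 was at 2.32 CPM in CTRL-1326 and 9.07 in CTRL-1330 and at 2.53 (KO-1327), 3.32 (KO-1333) and 3.01 CPM (KO-1334), again highest in the library with the highest H2-Aa. Xcr1, Clec9a, Itgax and Zbtb46, and Batf3 and Cd209a here and below, were chosen after their values were seen. Zbtb46 is also among the 4 genes of the list with the highest mean CPM.

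Wdfy4, Flt3, Cd209a, Clec10a and Ccr7 did not have those 2 libraries highest in GMP, and most of the summed level of the list there was that of Wdfy4. Its summed level was 483 to 511 CPM in GMP CTRL, 522 to 604 in GMP KO, 1209 to 1344 in LSK CTRL and 1117 to 1326.3 in LSK KO. Wdfy4 was at 431 to 466 CPM in GMP, and the cytokine receptor gene Flt3 at 13.7 and 20.3 CPM in CTRL and 71.3 to 155 in KO. Of the list 0 of 8 tested genes in GMP and 0 of 10 in LSK were called between KO and CTRL. In LSK, however, 9 of the 10 had lower fitted levels in KO, where 49.2% of all genes had. Their median log2 fold change was -0.56, where that of the class II genes was -0.48. An unadjusted p under 0.05 was reached by 4 of the 10, against 2.83% of all genes. Itgax, Cd209a and Clec10a, a lectin gene, were each lower in every LSK KO library than in either CTRL library, at 3.88 to 6.25, 0.329 to 0.889 and 7.60 to 8.99 CPM in KO against 7.57 to 8.50, 1.10 to 1.81 and 9.50 to 11.9 in CTRL. Of the dendritic cell list 3 of 10 were thus lower in every LSK KO library, against 7.26% of all genes. The same held for 4 of 9 T and NK cell genes. It also held for 4 of 12 genes of endosomal processing and class II turnover. In these lists 0 genes were higher in every LSK KO library, against 7.56% of all genes. In GMP the median of the dendritic cell list was -0.26, with 7 of 8 negative, where 48.8% of all genes were. Batf3, a factor of the XCR1+ subset, had 34 reads in CTRL-350 (0.355 CPM), 3 in KO-179 (0.0236 CPM), 1 in KO-178 and 0 in CTRL-346 and KO-352. The part of dendritic cells in the class II levels was not tested.

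Other cell types are given mostly as sums and medians of their lists, and genes at high levels dominate the sums. The plasmacytoid list and the monocyte and macrophage list are not described gene by gene. The 10 B cell genes summed to 38.8 to 38.9 CPM in GMP CTRL and 32.7 to 42.3 in GMP KO, nearly all of it Cd79b (30.8 to 41.0 CPM), which did not follow the class II order. At lower levels, Cd22 and Cd79a did follow it: in the order CTRL-350, KO-179, KO-178, CTRL-346, KO-352, Cd22 was at 0.940, 0.417, 0.325, 0.237 and 0.0809 CPM and Cd79a at 0.637, 0.362, 0.1626, 0.1618 and 0.0708. Pax5 had 0 reads in KO-179 and KO-352, Ebf1 had 0 in KO-179 and Blk had 0 in KO-352. All 8 B cell genes tested in GMP had negative log2 fold changes (median -1.04, 3 with an unadjusted p under 0.05). In LSK the B cell sum was 66.8 to 87.7 CPM in CTRL and 76.6 to 121 in KO, and all 10 log2 fold changes were positive (median 0.38). The 12 monocyte and macrophage genes summed to 442 to 555 CPM in GMP CTRL and 627 to 698 in KO, and to 140 to 186 and 116 to 162 in LSK. Plasmacytoid dendritic cell genes summed to 75.2 to 85.1 and 78.3 to 92.5 CPM in GMP and to 243 to 280 and 227 to 279 in LSK. T and NK cell genes summed to 1.95 to 3.30 and 3.92 to 12.9 CPM in GMP and to 35.6 to 49.5 and 38.1 to 47.5 in LSK, where Cd3e was at 0 in 1 library; in GMP it was at 0 in 4 of 5. The median log2 fold changes in GMP and LSK were 0.35 and -0.11 for the monocyte and macrophage list, -0.026 and -0.15 for the plasmacytoid list and 1.02 and -0.29 for the T and NK list. Within the T and NK list, Cd8a was highest in GMP CTRL-350 and KO-179, at 0.303 and 0.291 CPM (29 and 37 reads). It was at 0, 0.0574 and 0.0101 CPM in CTRL-346, KO-178 and KO-352. The other genes of that list did not have these 2 libraries highest. Cd22, Cd79a, Blk, Cd3e and Cd8a were chosen after their values were seen. Of these cell type lists 0 genes were called between KO and CTRL in either population. Their part in the class II levels was not tested.

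Genes were ranked by how closely they followed the mean profile of H2-Aa, H2-Ab1, H2-Eb1 and Cd74 over the 10 libraries, as log2(CPM + 0.5) centred within each population. Of 11643 genes ranked, Plbd1, which encodes a phospholipase B-like protein, came first, with a root mean square difference of 0.45 log2 units. It was at 1.06 and 28.0 CPM in GMP CTRL-346 and CTRL-350, at 8.57 (KO-178), 21.9 (KO-179) and 0.536 CPM (KO-352), and in LSK highest in CTRL-1330 (33.1 CPM). Ifi205, an interferon-inducible gene, differed by 0.48, the scavenger receptor gene Cd36 by 0.55, Ahnak by 0.56, Gcsam by 0.58 and the metalloprotease gene Adam19 by 0.58. Among the class II genes Ciita, which was not in the profile, differed by 0.37, H2-Ob by 0.85, H2-Oa by 1.07, H2-DMb2 by 1.10, H2-DMb1 by 1.20 and H2-DMa by 1.21. H2-Ab1, although in the profile, differed by 0.70. The libraries share their depth and composition across genes, so the ranking is a description.

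**Figure D4:**
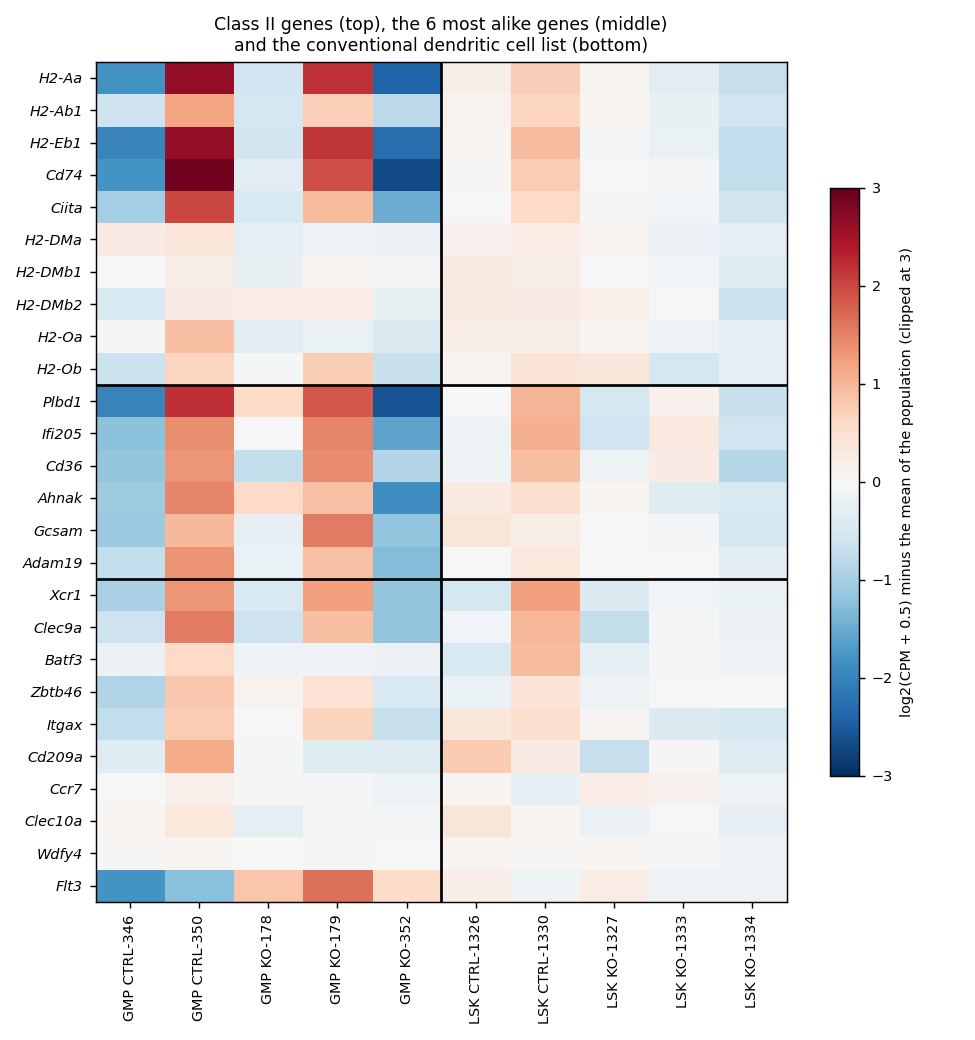
log2(CPM + 0.5) minus the population mean (color, clipped at 3) for the class II genes, the 6 genes most like them and the conventional dendritic cell list (rows) in 10 libraries (columns). Xcr1 and Clec9a (4.58 and 4.22 CPM in GMP CTRL-350) share the columns of H2-Aa and Cd74, while Flt3 follows genotype in GMP and H2-DMa and H2-DMb1 stay near 0.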

How the data were processed

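The authors deposited 1 table of raw read counts per Ensembl gene for each population, and these were used here. The submitters' processing notes name STAR, HTSeq 0.5.3p3, DESeq 1.18.0, DESeq2 1.4.5 and mm10 (GRCm38), with no roles, and the sources used here do not give the annotation release. Per the labels' protocols the libraries were made from total RNA with a stranded kit after removal of ribosomal RNA. The deposited normalized tables were not used. Samples were grouped by title, also KO-352, whose description names LSK data.

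The counts entered edgeR 4.0.16 in R 4.3.3, with filterByExpr (minimum count 10), TMM, glmQLFit and glmQLFTest, two-sided, Benjamini-Hochberg adjusted over all genes tested, threshold 0.05. KO and CTRL were compared within GMP and LSK, each with 3 residual degrees of freedom. Differences between populations came from a joint fit of the 10 libraries, with a mean for each group and 6 residual degrees of freedom. SE was computed as the size of the log2 fold change over the root of F. DESeq2 1.42.0, limma-voom (limma 3.58.1), other scalings and filters, the share of reads outside genes, the sex of the library and leaving out libraries were alternatives. Symbols, exon lengths and positions are from GENCODE vM21, and promoters from RefSeq.

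The members and lists were chosen with earlier results of these data known. Every member was named. Of each other list, up to 4 genes were named for each comparison, first called genes and then those with the highest mean CPM. Any others are said to be chosen after their values were seen, apart from gate markers given as examples. For likeness the 6 genes with the smallest root mean square difference from the profile were named, among genes with a mean of at least 1 CPM in each population.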

Additional observations from a re-analysis of the deposited data

How the results depend on the processing

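The count of called class II genes stayed at 0 in LSK under all 13 alternatives and for the difference between populations under all 16. In GMP it was 1 with DESeq2, 3 with a term for the share of reads outside genes and 0 under the others. The GMP median ran from -1.29 to 0.73 when 1 library was left out, with the highest value without CTRL-350. With 1 library left out, KO against CTRL in GMP ran from -3.06 to 2.86 for H2-Aa, -1.23 to 0.58 for H2-Ab1, -3.13 to 3.33 for H2-Eb1, -3.15 to 2.66 for Cd74, -2.85 to 1.68 for Ciita, -0.17 to 0.66 for H2-DMb2 and -0.55 to 0.79 for H2-Ob. With KO-179 and CTRL-350 both left out, which was chosen after seeing the data, the median was 0.30, H2-Aa 0.70, H2-Eb1 1.12, Cd74 0.82, Ciita 0.27 and H2-Ob 0.32. H2-Ob also turned to 0.029 with limma-voom and 0.021 with library totals, and H2-DMb2 to -0.078 with the term for reads outside genes. The difference between populations ran, with 1 library left out, from -3.64 to 2.28 for H2-Aa, -4.22 to 2.24 for H2-Eb1, -1.23 to 0.58 for H2-Ab1, -1.16 to 0.18 for H2-Ob, -3.37 to 2.45 for Cd74 and -2.24 to 2.29 for Ciita, and with limma-voom it was -0.22 for H2-Aa and -0.45 for H2-Eb1. For LSK against GMP in CTRL, 4 genes were called with limma-voom, 4 with library totals without TMM, 2 to 9 with 1 library left out (9 without CTRL-350) and 9 with both left out. Its median ran from 0.52 to 3.01 with 1 library left out and was 3.01 with both left out. H2-DMb1 in this comparison turned to 0.13 with library totals, and H2-Oa ran from -0.0045 (without CTRL-346) to 0.90. For LSK against GMP in KO the median ran from 1.001 to 2.38 (without KO-179) and was 2.37 with both left out. Of the results for single genes, 685 kept direction and side of the threshold, 31 passed it newly, 8 lost it and 40 changed direction, each of these for a gene called neither before nor after. In the fit of all libraries DESeq2 gave no adjusted p for Cd74 and H2-Eb1. No paired analysis was possible because no 2 groups carry the same library numbers in their titles. With 2 CTRL libraries per population, 1 library decides the GMP values of the chains, Cd74 and Ciita. H2-Ab1 and Ciita in KO lost the call for LSK against GMP without some single libraries. H2-DMb1, called lower in LSK in KO, kept that call under 16 of 17 alternatives.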

Other observations

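Nlrc5, the transactivator of class I genes and a relative of Ciita, did not follow Ciita in GMP: it was at 52.6 and 48.6 CPM in CTRL-346 and CTRL-350 and at 66.7 (KO-178), 59.5 (KO-179) and 66.0 CPM (KO-352). In LSK it was at 149 CPM in CTRL-1326 and 214 in CTRL-1330, and at 193 (KO-1327), 130 (KO-1333) and 175 CPM (KO-1334), so that CTRL-1330 was highest for both transactivators. Tap2, a subunit of the peptide transporter of class I, was at 190 CPM in CTRL-1330 and 121 to 129 CPM in the other 4 LSK libraries. Nlrc5 was not called between KO and CTRL (edgeR adjusted p = 0.31 in GMP and 0.9998 in LSK). Between populations it was higher in LSK, by a log2 fold change of 1.46 ± 0.19 in CTRL and 0.97 ± 0.15 in KO. Nlrc5 and Tap2 were chosen after their values were seen.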
